A study of Mus musculus with 21 samples.

Results

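The 32 genes described here are widely used markers of astrocytes, chosen by name: each is a row of both count tables, of 21872 gene symbols in all. They were followed in mouse brain RNA from 21 libraries, taken in the embryo (embryonic day 18.5, E18.5) or in mice 7 weeks old. Control mice received water. The others received trientine (TETA), a drug that binds copper, and their labels call them copper-deficient. There were 6 control and 6 TETA libraries at E18.5, and 5 control and 4 TETA libraries at 7 weeks. The extraction protocol names prefrontal cortex of male mice for 7 weeks, while every library is labelled as brain, so region and sex at E18.5 are taken as not stated. Strain, dose and length of treatment are not given in the sources used here. Nothing says that replicate libraries came from separate animals, so the p-values measure the spread between these libraries, which may be technical. Replicates at E18.5 carry paired numbers (1-1 and 1-2 up to 3-1 and 3-2), and what the first number stands for is not given. If libraries that share it are related, the 6 per group are not independent.

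Astrocytes are the glial cells that line brain vessels and wrap synapses. They take up potassium, glutamate and water, supply neurons with metabolites and secrete lipid-carrying proteins. Most arise from radial glia around birth and acquire their adult gene set over the following weeks, under transcription factors that include SOX9 and the NFI family. Copper enters the brain largely through vessels that astrocyte endfeet surround, and astrocytes are known to store copper.

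Levels are given as CPM, which are counts relative to the library's scaled total, on 1 scale for all libraries. Where genes are compared with each other the level is also divided by exon length (RPKM). Library totals lay between 14668965 and 24292715 counts in the embryo and between 17838051 and 24035857 counts later. In control libraries at E18.5 the 32 genes together held 0.136% to 0.152% of all counts. At 7 weeks they held 0.865% to 1.00% in control libraries and 0.817% to 0.909% in TETA libraries. In RNA from whole tissue, fewer astrocytes and less RNA per astrocyte cannot be told apart.

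The markers were present in every group, but at E18.5 some were near the limit of detection. Gjb6, which encodes the gap junction protein connexin 30, had 19 counts in the 6 control libraries together and 0 in control replicate 1-1. In the deposited E18.5 table, 1940 genes at 0 in that library have counts that are multiples of 11 in every other library. Gjb6 is the only one of the 32 among them, and its E18.5 counts were divided by 11. S100b had 8 to 20 counts per control library at E18.5 and Gpr37l1 had 18 to 48, so their levels there have wide counting error.

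The change with age in control libraries gives the scale on which any effect of the drug can be read. Between E18.5 and 7 weeks all 32 genes passed the threshold (adjusted p under 0.05, edgeR's quasi-likelihood test), with 30 higher at 7 weeks and 2 lower. Of all 14375 genes tested, 89.5% passed, 44% of all higher and 45.5% lower, so passing the test is by itself no mark of the astrocyte genes. Their median log2 fold change was 2.73, beside -0.02 over all genes. The groups did not overlap for any of the 32, and 80.2% of all genes had groups that did not overlap. More than 2-fold higher at 7 weeks were 26 of the 32 (22.8% of all genes), more than 10-fold 11 (4.17%) and more than 100-fold 4 (0.473%). Without TMM scaling the median over all genes was -0.18 and that of the 32 genes was 2.58, the split stayed 30 higher and 2 lower, and the share of higher genes among all called went from 49.2% to 43.7%. Age and the table in which the counts were deposited change together here and cannot be told apart, and brain region at E18.5 is not stated.

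Among the filament and cytosolic genes all 4 were higher at 7 weeks. Gfap, which encodes the astrocyte intermediate filament protein, lay between 7.76 and 12.7 CPM in the E18.5 control libraries, with a median of 9.33. At 7 weeks the control libraries held 107, 119, 107, 120.3 and 113 CPM (log2 fold change 3.58, SE 0.072). All 5 lay far above the embryonic range. The calcium-binding protein gene S100b rose from a median of 0.691 CPM to levels of 93.0 to 114 CPM (log2 fold change 7.19, SE 0.089). For Fam107a, which encodes an actin-associated protein, the log2 fold change was 7.26 (SE 0.094), and for Ndrg2 2.45 (SE 0.054).

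All 9 channel, junction and transporter genes were higher at 7 weeks. Aqp4, the water channel of the endfeet, went from a median of 18.2 CPM (14.9 to 23.0) to 117, 118, 105, 110.2 and 99.6 CPM (log2 fold change 2.60, SE 0.071). Gja1, which encodes connexin 43, went from a median of 25.8 CPM (21.03 to 31.2) to 186, 185, 156, 174 and 167 CPM (log2 fold change 2.75, SE 0.072). The 2 connexin genes differed in course. Per exon length, Gja1 had a mean of 2.53 RPKM in the E18.5 control libraries (rank 22). Gjb6, after its division by 11, had 0.052 RPKM there (rank 32). Gjb6 reached 51.4 to 60.2 CPM at 7 weeks, a log2 fold change of 8.44 (SE 0.16) from its few embryonic counts. That value rests on the division by 11, which no source states: with the counts as deposited its log2 fold change was 5.06, under 100-fold. The sodium bicarbonate cotransporter gene Slc4a4 changed by 2.46 on the log2 scale (SE 0.050), and the other 5 (Mlc1, Hepacam, Atp1b2, Slc14a1 and Slc7a10) lay between 1.96 and 3.26.

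The 7 metabolic genes were all higher as well, by unequal amounts. Glul, which encodes glutamine synthetase, went from 217 ± 5.46 CPM (SD, n = 6) to 2057 ± 78.8 CPM (SD, n = 5), and Aldoc, the brain aldolase, from 98.4 ± 9.21 to 1007 ± 83.2 CPM. Aldh1l1, a folate-metabolising enzyme whose promoter is widely used to mark astrocytes, went only from 52.8 ± 3.18 to 82.2 ± 8.52 CPM (log2 fold change 0.64, SE 0.057). Cbs, which makes cystathionine, had the smallest rise of the group at 0.55 (SE 0.052). Slc25a18, a mitochondrial glutamate carrier, had a log2 fold change of 3.88, Acsbg1, a fatty acid activating enzyme, one of 2.71, and Ppp1r3c, a glycogen-targeting subunit of protein phosphatase 1, one of 1.62.

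Of the secreted proteins, all 5 genes were higher, with log2 fold changes of 3.92 for the chaperone clusterin (Clu), 3.70 for the protease gene Htra1, 3.42 for the lipid carrier gene Apoe, 2.79 for the protease inhibitor gene Cst3 and 0.84 for Mfge8. Apoe and Cst3 are also transcribed in microglia, whose 10 listed markers all rose with age (median log2 fold change 2.93); their part in these values was not tested. Of the 4 receptor genes, Gpr37l1 (7.23) and the neurotensin receptor gene Ntsr2 (5.11) had the largest log2 fold changes, followed by Fgfr3 (1.78) and Tril (1.63). The transcription regulators behaved differently. Id3 was higher at 7 weeks (0.65, SE 0.060), while Sox9 and Id4, both also active in radial glia, were lower. Sox9 lay between 26.6 and 33.6 CPM in the E18.5 control libraries and at 19.4, 22.1, 23.0, 23.0 and 15.5 CPM at 7 weeks, a log2 fold change of -0.53 (SE 0.082). Id4 had one of -0.60 (SE 0.053).

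**Figure D1:**
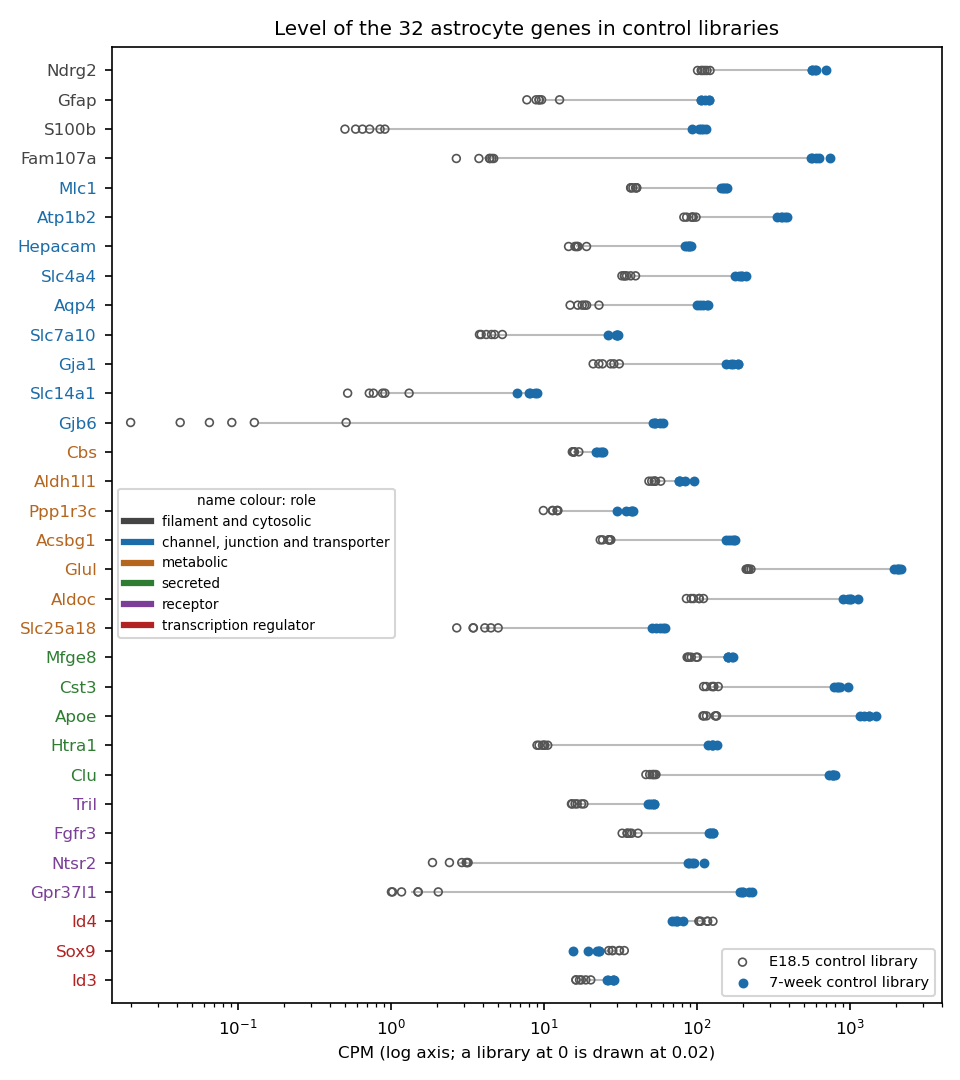
Level of each astrocyte gene in control libraries, in CPM on a log axis: open circles are the 6 E18.5 libraries, filled circles the 5 libraries at 7 weeks, and a grey line joins the group means. Gene names are coloured by role. The filled circles lie to the right of the open ones for 30 genes and to the left for Sox9 and Id4.

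Per exon length, Cst3 had the highest level at both ages, at 98.3 ± 7.84 RPKM at E18.5 (SD, n = 6) and 675 ± 57.9 RPKM at 7 weeks (SD, n = 5). Glul and Apoe followed at E18.5 with 65.3 and 57.5 RPKM, without overlap between neighbours in that order. At 7 weeks Glul and Apoe stood at 619 and 612 RPKM, and the libraries of Cst3, Glul and Apoe overlapped from one to the next. Fam107a moved from rank 27 at E18.5 to rank 7 at 7 weeks, Gpr37l1 from 29 to 8 and S100b from 30 to 10. Sox9 moved the other way, from rank 13 to rank 30. Of the 31 neighbouring pairs in the order, 21 overlapped at E18.5 and 17 at 7 weeks.

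Genes of radial glia mostly moved the other way. Of 13 listed (chosen by name), 10 were lower at 7 weeks (beside 45.5% of all genes) and 3 higher (beside 44%), with a median log2 fold change of -1.13, beside -0.02 over all genes. The log2 fold changes of this list ran from -5.65 to 2.30, so it moved in both directions. Fabp7 and Nes, named after their values were seen, were among the lower genes. The fatty acid binding protein gene Fabp7 fell from 489 ± 49.0 to 12.4 ± 2.32 CPM (SD, n = 6 and 5), and Nes, which encodes nestin, from 112.5 ± 6.001 to 13.1 ± 1.48 CPM. Of 38 further astrocyte genes, 31 were higher and 6 lower, against the same shares of all genes, with a median of 2.13. The glutamate transporter gene Slc1a2 had the lowest p of that list and went from 141 ± 11.5 to 4126 ± 199 CPM. The NFI genes Nfia, Nfib and Nfix were among the 6 that were lower, with log2 fold changes of -1.41, -2.21 and -1.35.

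At E18.5 the question is whether the drug changed astrocyte genes in the embryo. None of the genes passed: 31 of the 32 could be tested (Gjb6 was too low), and 0 had an adjusted p under 0.05 by edgeR's quasi-likelihood test, as did 0% of the 13794 genes. DESeq2 called 10 genes, none of them among the 32. At an unadjusted p under 0.05 there was 1 of the 31, beside 4.78% of all genes. The median log2 fold change of the 31 was -0.04, beside -0.003 over all genes, and 22 of the 31 were negative, beside 51.8% of all genes. Without control replicate 1-1 or without TETA replicate 1-2 that median was -0.02. TETA replicate 1-2 was the lowest of the 12 libraries for 15 of the 32 genes (46.9%), beside 14% of all genes.

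The 1 gene with an unadjusted p under 0.05 was Aqp4. Its control libraries had 14.9 CPM as the lowest, 18.2 as the median and 23.0 as the highest, and its TETA libraries 14.7, 16.3 and 17.3. The groups overlapped, and the log2 fold change was -0.17 (SE 0.079, adjusted p 0.996 in edgeR's quasi-likelihood test). Gfap had 7.76, 9.33 and 12.7 CPM as lowest, median and highest in control libraries and 7.49, 8.74 and 10.2 CPM in the TETA libraries. The TETA libraries lay within or just below the control range, with a log2 fold change of -0.13 (SE 0.099). S100b, at 0.503, 0.691 and 0.916 CPM in the controls and 0.246, 0.525 and 0.938 CPM in the TETA libraries, had the most negative value, -0.30, with an SE of 0.29.

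The other genes followed by library were also close at this age. Aldh1l1 had 48.7, 52.9 and 58.1 CPM as lowest, median and highest in control and 48.4, 54.9 and 58.3 CPM in the TETA libraries. Gja1 had 21.03, 25.8 and 31.2 CPM against 20.7, 24.0 and 30.2 CPM. For both genes the ranges of the groups nearly coincided. Aldoc had 85.5, 99.4 and 111 CPM in the controls and 87.5, 95.8 and 99.2 CPM in the TETA libraries. Apoe had 109.8, 124 and 135 CPM against 97.6, 116 and 123 CPM, with TETA replicate 1-2 the lowest. Sox9 had 26.6, 29.7 and 33.6 CPM against 25.2, 28.6 and 34.5 CPM. The log2 fold changes of these 5 genes ran from -0.10 for Apoe to 0.05 for Aldh1l1, each with groups that overlapped. Of genes past the threshold at 7 weeks, Acsbg1 had 23.4, 26.6 and 27.4 CPM against 20.9, 25.4 and 27.3 CPM, and Id3 16.2, 17.4 and 20.3 CPM against 14.1, 17.8 and 18.6 CPM. Ppp1r3c had 9.94, 11.8 and 12.4 CPM against 10.5, 11.5 and 14.4 CPM, and Gpr37l1 1.01, 1.34 and 2.05 CPM against 0.860, 1.23 and 2.54 CPM. At this age the groups overlapped for all 32 genes, and did not for 0.319% of the genes tested.

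At 7 weeks the same question is asked of the grown brain. Of the 32 genes, 8 had an adjusted p under 0.05 by edgeR's quasi-likelihood test (25%), beside 9.96% of the 14240 genes tested. Lower in TETA were 7 of them (Slc4a4, Clu, Gpr37l1, Acsbg1, Aldoc, Id3 and Aldh1l1), beside 4.28% of all genes, and higher was 1 (Ppp1r3c), beside 5.67% of all genes. The changes were small, between 12.1% and 18.1% down and 15.9% up. An unadjusted p under 0.05 was found for 18 of the 32, beside 24% of all genes. The log2 fold change was negative for 27 of the 32, beside 49.9% of all genes, and the median was -0.09, beside 0.0002 over all genes. TETA lay wholly below control for 6 of the 32 genes, beside 5.84% of all genes, and wholly above for 1, beside 5.41% (11.2% of all genes in either direction). Without TMM scaling the count of calls was again 7 lower and 1 higher, while over all genes the share of higher calls went from 57% to 67.6%. With a score of 13 striatum genes as a covariate, all of which were lower in TETA (median log2 fold change -1.40), 0 of the 32 passed in edgeR and 3 had an unadjusted p under 0.05. Of all genes tested, 2 passed under that covariate and 697 had an unadjusted p under 0.05. The 8 genes past the threshold without it kept their sign under that covariate, and 5 of them had a larger log2 fold change: Id3 -0.63, Aldh1l1 -0.36, Gpr37l1 -0.35, Aldoc -0.24 and Ppp1r3c 0.26. The other 3 had smaller ones, Slc4a4 -0.19, Acsbg1 -0.16 and Clu -0.13. The striatum score did not overlap between the groups, so this fit cannot separate the treatment from the share of striatum. No conclusion is drawn from these signs and sizes. Without the filter on low counts 10 passed, with Sox9 and Fam107a added. Leaving out each library gave 6 (without TETA replicate 3 or 4) to 10 genes (without control replicate 3 or TETA replicate 2).

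**Figure D2:**
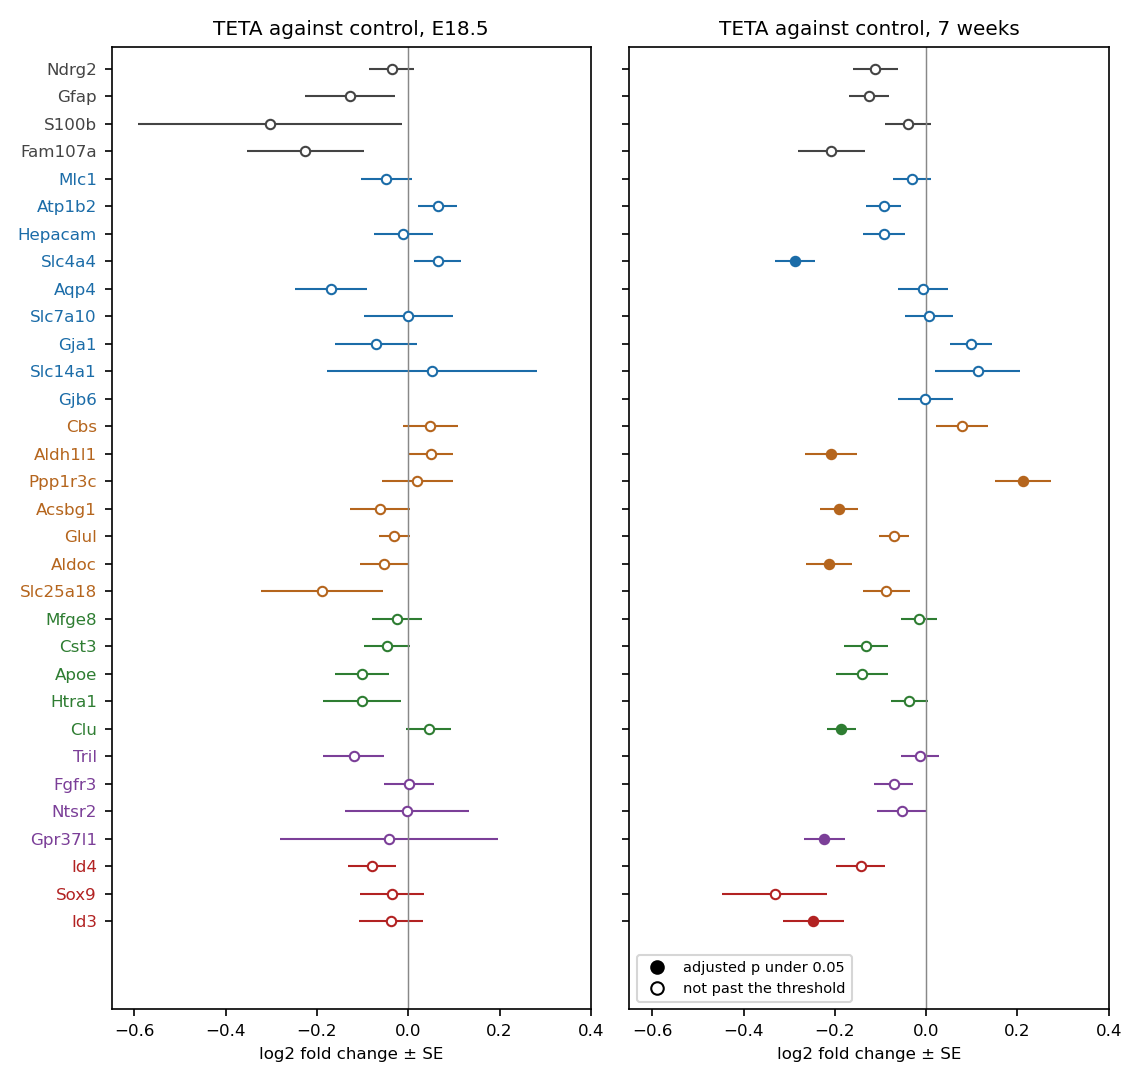
Log2 fold change of TETA against control for each astrocyte gene, with its SE as a bar, at E18.5 (left) and at 7 weeks (right). Filled points passed an adjusted p of 0.05: 0 of 31 at E18.5 and 8 of 32 at 7 weeks, 7 of them left of 0.

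For 4 of these 8 genes the bases before the transcription start are shown, because they carry 1 RefSeq start each and the data show them moving at 7 weeks, 3 down and Ppp1r3c up. The sequences are from RefSeq on GRCm38.p6, 5′ to 3′ on the gene's strand, and leave out bases that GENCODE places in the gene's own exons. Capitals mark TTGGC, the half-site bound by NFI factors, or its reverse complement GCCAA. The RefSeq start of Aldh1l1 lies within the GENCODE gene model (chr6:90486427-90600203), downstream of its first base. The windows are chr6:90550543-90550788 (+ strand) for Aldh1l1, chr9:54661886-54662135 (- strand) for Acsbg1, chr1:135167682-135167931 (- strand) for Gpr37l1 and chr19:36736654-36736854 (- strand) for Ppp1r3c.
Aldh1l1: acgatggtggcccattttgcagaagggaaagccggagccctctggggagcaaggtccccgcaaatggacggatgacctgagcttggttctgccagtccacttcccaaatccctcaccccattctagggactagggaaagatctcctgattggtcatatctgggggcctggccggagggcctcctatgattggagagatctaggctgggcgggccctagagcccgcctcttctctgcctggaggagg
Acsbg1: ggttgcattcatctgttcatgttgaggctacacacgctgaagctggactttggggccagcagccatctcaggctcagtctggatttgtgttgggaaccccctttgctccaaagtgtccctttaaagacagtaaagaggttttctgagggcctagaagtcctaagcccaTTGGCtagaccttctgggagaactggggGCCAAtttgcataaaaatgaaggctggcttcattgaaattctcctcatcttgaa
Gpr37l1: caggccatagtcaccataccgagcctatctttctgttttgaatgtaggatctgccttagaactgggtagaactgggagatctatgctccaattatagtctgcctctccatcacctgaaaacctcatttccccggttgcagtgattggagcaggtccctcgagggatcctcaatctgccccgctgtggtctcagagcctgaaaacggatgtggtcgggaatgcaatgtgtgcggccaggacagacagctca
Ppp1r3c: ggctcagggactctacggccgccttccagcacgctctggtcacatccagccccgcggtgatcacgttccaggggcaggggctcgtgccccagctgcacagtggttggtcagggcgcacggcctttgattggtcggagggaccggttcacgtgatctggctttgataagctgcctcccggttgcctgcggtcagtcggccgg
Acsbg1 holds 2 half-sites, 82 and 54 bases before the start, and the printed windows of the other 3 hold none. In the 250 bases before the start, TTGGC on either strand occurs in 41.5% of 32851 RefSeq promoters and in 20 of the 36 promoters (55.6%) of the 27 astrocyte genes in that table. The full NFI palindrome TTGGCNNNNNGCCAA, which contains the half-site, occurs in 0.0365% of promoters and in 0 of these 36. The SOX core ACAAT occurs in 27.7% of promoters and in 3 of the 36. These are letter matches only. The shares are for the full 250 bases, while the printed windows of Aldh1l1 and Ppp1r3c are shorter (246 and 201 bases). Their lack of a half-site is thus not on the same window as the shares.

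Among the transporters and channels, Slc4a4 was the 1 gene of 9 past the threshold (11.1%, near the 9.96% of all genes). It had the smallest p of the 32. It encodes the electrogenic sodium bicarbonate cotransporter and lies at chr5:88886818-89239653. Control libraries 1 to 5 held 194, 197, 177, 188 and 208 CPM and TETA libraries 1 to 4 held 159, 162, 144 and 162 CPM. Every TETA library was below every control library, with means of 193 ± 11.6 and 157 ± 8.63 CPM (SD, n = 5 and 4). The log2 fold change was -0.29 (SE 0.044, adjusted p 0.000265 in edgeR's quasi-likelihood test).

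The other 8 genes of that role did not pass. Aqp4 was at 117, 118, 105, 110.2 and 99.6 CPM in the controls and at 118, 96.9, 104 and 114 CPM in the TETA libraries, so the groups were mixed, with a log2 fold change of -0.01 (SE 0.055). Gja1 was at 186, 185, 156, 174 and 167 CPM in the controls and at 192, 187, 183 and 174.5 CPM in the TETA libraries. Control replicate 3 was the lowest and the groups overlapped, with a log2 fold change of 0.10 (SE 0.046, adjusted p 0.195 in edgeR's quasi-likelihood test). Gjb6 was at 55.2 ± 3.55 CPM in the controls and 54.9 ± 5.83 CPM in the TETA libraries. The potassium pump subunit gene Atp1b2, Hepacam and Mlc1 had log2 fold changes of -0.09, -0.09 and -0.03, and the urea transporter gene Slc14a1 and the amino acid transporter gene Slc7a10 had 0.11 and 0.01. Atp1b2 passed only without control replicate 3 (adjusted p 0.0447 in edgeR).

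Of the 7 metabolic genes, 3 fell (beside 4.28% of all genes) and 1 rose (beside 5.67%). Acsbg1 was at 162, 176, 156, 170.45 and 177 CPM in the controls and at 153, 148, 139.55 and 145 CPM in the TETA libraries, with a log2 fold change of -0.19 (SE 0.041, adjusted p 0.00446 in edgeR's quasi-likelihood test). All 4 TETA libraries lay below the controls. Aldoc was at 1016, 978, 908, 996 and 1137 CPM in the controls and at 842, 948, 840.2 and 821 CPM in the TETA libraries, with a log2 fold change of -0.21 (SE 0.050, adjusted p 0.00901). TETA replicate 2 lay above control replicate 3, so these groups overlapped.

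Aldh1l1 was at 78.0, 83.5, 76.3, 76.7 and 96.6 CPM in the controls and at 72.4, 72.7, 69.0 and 68.9 CPM in the TETA libraries, with a log2 fold change of -0.21 (SE 0.057, adjusted p 0.0240 in edgeR's quasi-likelihood test). The groups did not overlap, but control replicate 5 stood above the other controls. Without TETA replicate 3 the adjusted p in that test was 0.0749, and without TETA replicate 4 it was 0.0671. Exons of Aldh1l1 also overlap a gene model on each strand (Gm45901 and Gm15756), and how shared reads were counted is not given in the sources used here.

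Ppp1r3c, at chr19:36731731-36736653, was the 1 gene that rose. It was at 37.7, 37.1, 34.5, 38.0 and 30.0 CPM in the controls and at 39.5, 39.1, 40.7 and 43.7 CPM in the TETA libraries, with a log2 fold change of 0.21 (SE 0.061, adjusted p 0.0306 in edgeR's quasi-likelihood test). All TETA libraries lay above all controls, and control replicate 5 was the lowest. The call was lost without control replicate 3 or 5 and without TETA replicate 3 or 4, with adjusted p-values in that test up to 0.0974. Glul, Slc25a18 and Cbs did not pass, with log2 fold changes of -0.07, -0.09 and 0.08.

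Clu was the 1 secreted protein gene of 5 past the threshold (20%, beside 9.96% of all genes). It lies at chr14:65968483-65981547 and was at 775, 781, 735, 759 and 799 CPM in the controls and at 672, 714, 654 and 649.5 CPM in the TETA libraries. The groups did not overlap, and the log2 fold change was -0.19 (SE 0.032, adjusted p 0.000919 in edgeR's quasi-likelihood test). Apoe was at 1336, 1232, 1162, 1335 and 1482 CPM in the controls and at 1203, 1296, 1162 and 1058 CPM in the TETA libraries. Its groups overlapped, with a log2 fold change of -0.14 (SE 0.057, adjusted p 0.134 in the same edgeR test). Apoe passed only without control replicate 3 (0.042 in that test) or TETA replicate 2 (0.0495). Cst3 had a log2 fold change of -0.13 (adjusted p 0.0971 in edgeR), Htra1 one of -0.04 and Mfge8 one of -0.02. Cst3 passed only without control replicate 4 (0.045 in edgeR) or TETA replicate 1 (0.0438).

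Among the receptors, Gpr37l1 fell. It encodes an orphan receptor, lies at chr1:135160234-135167681 and was at 198, 221, 192, 199.7 and 229 CPM in the controls and at 178.5, 177, 170.1 and 182 CPM in the TETA libraries. All TETA libraries were below all controls, with a log2 fold change of -0.22 (SE 0.045, adjusted p 0.00312 in edgeR's quasi-likelihood test). Fgfr3, Ntsr2 and Tril had log2 fold changes of -0.07, -0.05 and -0.01, and none passed.

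Id3, an inhibitor of basic helix-loop-helix factors (chr4:136143497-136145755), was at 25.9, 28.9, 28.4, 28.3 and 26.5 CPM in the controls and at 22.3, 19.6, 24.7 and 25.3 CPM in the TETA libraries. The groups did not overlap but came close, with a log2 fold change of -0.25 (SE 0.067, adjusted p 0.0208 in edgeR's quasi-likelihood test). Without control replicate 2, TETA replicate 1 or TETA replicate 2 the gene no longer passed, with an adjusted p in that test of 0.0528, 0.0617 and 0.0718. Sox9 had the most negative log2 fold change of the 32, -0.33, with a large SE of 0.11 and an adjusted p (edgeR's quasi-likelihood test) of 0.0739. It was at 19.4, 22.1, 23.0, 23.0 and 15.5 CPM in the controls and at 17.9, 18.3, 11.97 and 16.9 CPM in the TETA libraries. Control replicate 5 was the lowest control and lay within the TETA range, and without it the adjusted p in that test was 0.00896. Id4 had a log2 fold change of -0.14 (adjusted p 0.102 in edgeR) and passed only without TETA replicate 2 (0.0293 in the same test).

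None of the 4 filament and cytosolic genes passed at 7 weeks, beside 9.96% of all genes. Gfap was at 107, 119, 107, 120.3 and 113 CPM in the controls and at 103, 105, 96.1 and 108 CPM in the TETA libraries. TETA replicate 4 lay above 2 controls, and the log2 fold change was -0.12 (SE 0.044, adjusted p 0.0777 in edgeR's quasi-likelihood test). S100b was at 107, 114, 93.0, 104 and 109 CPM in the controls and at 109, 95.3, 97.2 and 106 CPM in the TETA libraries, with groups that were mixed and a log2 fold change of -0.04 (SE 0.051). Fam107a and Ndrg2 had log2 fold changes of -0.21 and -0.11, and their adjusted p in edgeR was 0.0813 and 0.173. Fam107a passed without the filter on low counts (adjusted p 0.0479 in edgeR), without control replicate 3 (0.0464) and without TETA replicate 2 (0.00754), and Gfap passed without control replicate 1 (0.0471).

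**Figure D3:**
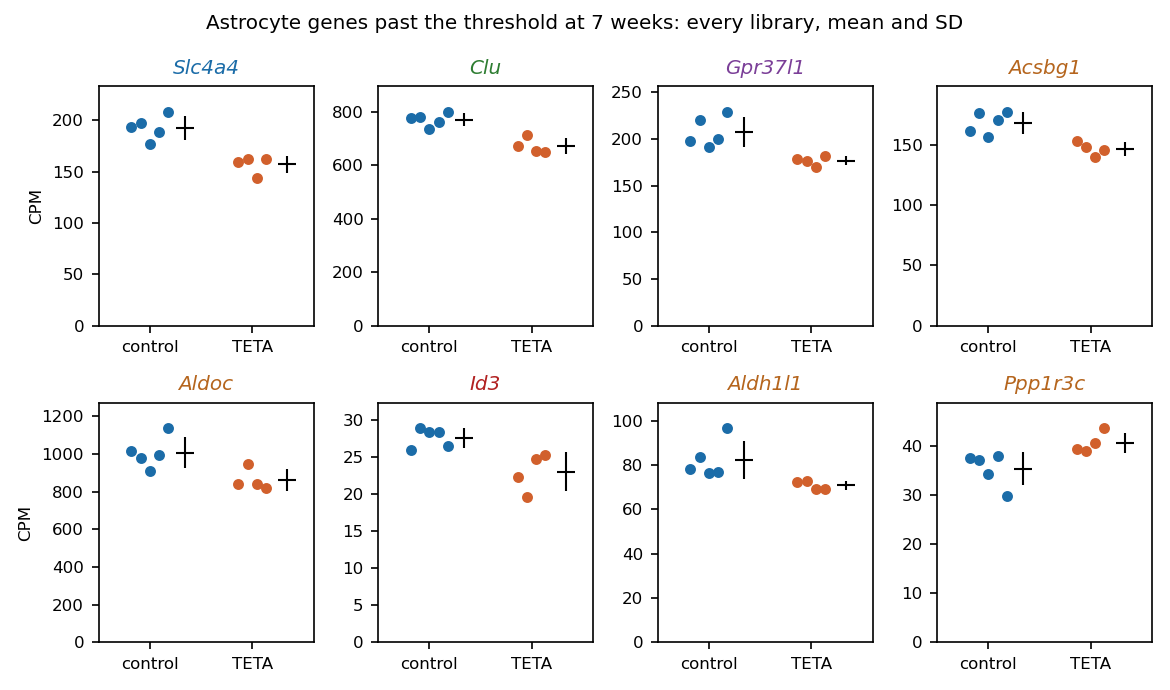
CPM of the 8 astrocyte genes past an adjusted p of 0.05 at 7 weeks, in each of 5 control and 4 TETA libraries (points), with the mean and SD beside them (cross). The TETA points lie below the control points for 6 genes, above them for Ppp1r3c, and overlap them for Aldoc.

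Library by library, control replicate 5 was the highest of the 9 libraries for 13 of the 32 genes (40.6%), beside 11.7% of all genes. TETA replicates 3 and 4 were the lowest for 10 genes each (31.2%), beside 14.4% and 10.4% of all genes. Control replicate 3 was the lowest for 6 genes (18.8%, beside 11.2% of all genes) and lay below the control mean for 29 of the 32, as TETA replicate 1 did for 26. The summed level of the 32 genes was 9870 ± 538 CPM in the controls and 8999 ± 388 CPM under TETA (SD, n = 5 and 4). The sums overlapped, since control replicate 3 held 9169 CPM and TETA replicate 2 held 9466 CPM. Against the mean of the controls the TETA libraries held 92.8%, 95.9%, 88.6% and 87.3%. At E18.5 the sums were 1401 ± 53.5 and 1369 ± 50.5 CPM (SD, n = 6 and 6).

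Whether the effect of the drug differed between the ages was tested as an interaction over all 21 libraries. Of the 32 genes, 2 had an adjusted p under 0.05 by edgeR's quasi-likelihood test, beside 3.1% of the 14660 genes tested. Both had negative differences. Of all genes tested, 1.43% passed with a negative difference and 1.67% with a positive one. Slc4a4 had a difference in log2 fold change of -0.36 (SE 0.070, adjusted p 0.00211), with 0.06 at E18.5 and -0.29 at 7 weeks. At E18.5 its control libraries had 32.4, 34.2 and 39.8 CPM as lowest, median and highest and its TETA libraries 34.4, 37.0 and 38.9 CPM. Clu had a difference of -0.24 (SE 0.063, adjusted p 0.0268 in edgeR), with 0.04 at E18.5 and -0.19 at 7 weeks. Its E18.5 libraries had 46.5, 51.5 and 54.1 CPM in the controls and 48.2, 52.7 and 56.6 CPM in the TETA libraries. For both genes the embryonic groups overlapped while the groups at 7 weeks did not. Aldh1l1 had a difference of -0.27 with an adjusted p of 0.0573 in edgeR. It passed with DESeq2 (adjusted p 0.0349), which called 3 of the 32, and in edgeR without control replicate 3-2 or TETA replicate 1-2 at E18.5 or control replicate 3 or 4 at 7 weeks (0.0158 to 0.0445). All 13 striatum genes passed with negative differences in the same edgeR test (median -1.36), and their part in the differences of the astrocyte genes was not tested. For Clu the call was lost without TMM factors (adjusted p 0.0682 in edgeR) and without control replicate 2-1 or 2-2 or TETA replicate 1-1 or 3-2 at E18.5, or TETA replicate 3 or 4 at 7 weeks, with adjusted p-values in that test up to 0.0725.

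Other astrocyte genes, from a list of 38 chosen by name, moved in both directions at 7 weeks: 3 were higher in TETA (beside 5.67% of all genes) and 4 lower (beside 4.28%), so that 18.4% passed beside 9.96% of all genes. The median log2 fold change was -0.05, and 26 of the 38 were negative, beside 49.9% of all genes. Their summed level lay between 10564 and 11776 CPM in the controls and between 9847 and 10373 CPM in the TETA libraries, without overlap. Of the lower genes, Slc1a2 was at 4126 ± 199 CPM in the controls and 3548 ± 144 CPM under TETA (SD, n = 5 and 4), and its log2 fold change was -0.21. The higher genes were the cytokine gene Il33 (0.44), the peptide transporter gene Slc15a2 (0.29) and Nfix (0.14). The groups of these 4 genes did not overlap. At E18.5, 0 of 37 passed.

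Genes that astrocytes switch on after injury were followed as well. Of 26 reactive astrocyte genes tested at 7 weeks, 5 passed (19.2%, beside 9.96% of all genes): 4 were higher (Aspg 0.70, Amigo2 0.28, S1pr3 0.27 and Ptgs2 0.26 on the log2 scale) and 1 was lower (Iigp1, -0.84). The median was 0.06, and 15 of the 26 were positive. Aspg was at 2.16 ± 0.598 CPM in the controls and 3.53 ± 0.298 CPM in the TETA libraries, and Iigp1 at 1.42 ± 0.404 and 0.797 ± 0.160 CPM (SD, n = 5 and 4), both low levels. Of the 13 radial glia genes, 3 passed (23.1%): the Notch targets Hes1 (0.54) and Hes5 (-0.44) moved in opposite directions and Sox2 was lower (-0.21). At E18.5, 0 of 19 reactive and 0 of 13 radial glia genes passed.

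Markers of other regions and cells differed between the 7-week groups too. All 13 striatum genes were lower in TETA, as were 4.28% of all genes. Their summed level was 1083 to 1332 CPM in the controls and 484 to 620 CPM in the TETA libraries, and none was at 0. Of 7 meningeal genes, 3 were lower (42.9%, beside 4.28% of all genes; median -0.40), with summed levels of 53.8 to 65.7 CPM in the controls and 35.3 to 52.9 CPM in the TETA libraries. Of 12 oligodendrocyte genes 0 passed in edgeR (beside 9.96% of all genes), while 4 were at an unadjusted p under 0.05 (beside 24%). Their median log2 fold change was -0.08, close to the -0.09 of the 32 astrocyte genes, with 8 of 12 negative (beside 49.9% of all genes). Their summed level was 7049 to 8311 CPM in the controls and 6264 to 7347 CPM in the TETA libraries, which overlapped. Of 10 microglia genes 0 passed in edgeR and 1 had an unadjusted p under 0.05 (median 0.02), beside the same shares of all genes. Of 7 choroid plexus and ependyma genes tested, 1 was lower and 6 were negative (median -0.33). Their summed level was 16.3 to 74.6 CPM in the controls, where replicate 4 stood apart, and 13.4 to 19.8 CPM in the TETA libraries. The lists of interneurons (6 genes), oligodendrocyte precursors (3) and endothelial cells and pericytes (10) held 1 call each, the first 2 lower and the last higher, with summed levels that overlapped between the groups. The part of these cells and regions in the astrocyte values was not tested beyond the striatum covariate. Of 9 cortical excitatory genes, 1 was higher and 2 were lower (33.3%, beside 9.96% of all genes), with summed levels of 2401 to 2576 CPM in the controls and 2400.4 to 2517 CPM in the TETA libraries. Because the striatum score did not overlap between the groups, the share of striatum in the tissue and the treatment cannot be told apart.

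**Figure D4:**
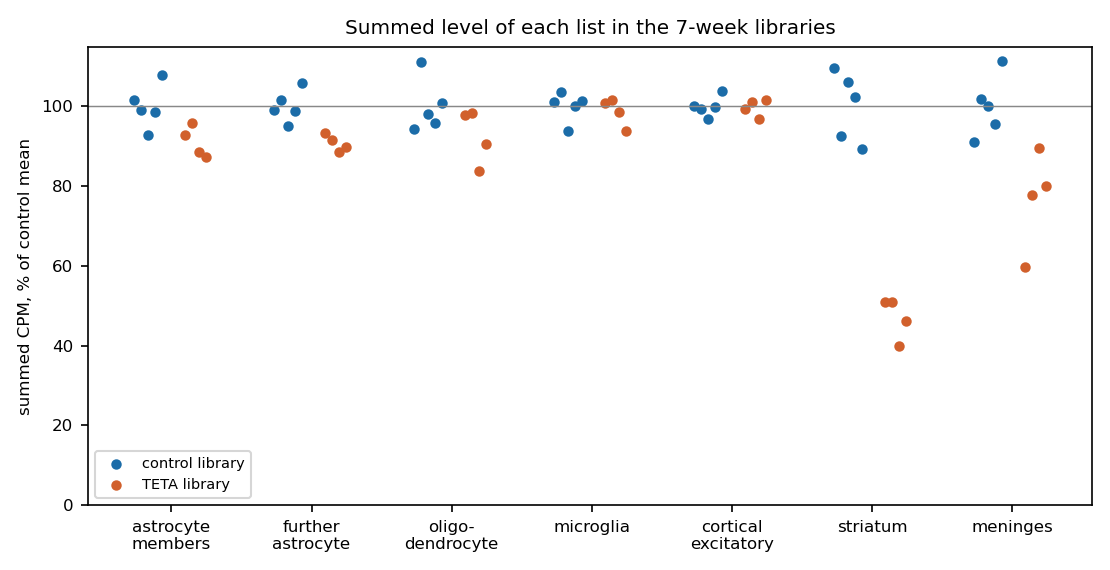
Summed CPM of each gene list in every 7-week library, as a percentage of the mean of the 5 control libraries (grey line at 100). Blue points are control and orange points TETA. The 32 astrocyte genes lie at 87.3% to 95.9% in the TETA libraries and the 13 striatum genes at 39.8% to 51.0%.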

How the data were processed

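RNA was measured by stranded poly(A) libraries (TruSeq, per the labels' protocols). Whole-number read counts for each gene symbol were deposited in 2 tables, 1 per age, and every column matched 1 sample. Reads were aligned with STAR 2.7.1a to mm10 and counted with featureCounts 2.0.1, per the submitters' processing notes. Their settings, including strand, and the annotation are not given in the sources used here. No 2 replicate libraries agreed within counting noise (lowest chi-square per gene 2.30).

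E18.5 rows at 0 in control replicate 1-1 were divided by 11. Genes were filtered with filterByExpr (minimum count 10), scaled by TMM and tested with edgeR 4.0.16 (R 4.3.3), by its two-sided quasi-likelihood test with Benjamini-Hochberg adjustment over all genes tested at a threshold of 0.05. SE is the log2 fold change divided by the square root of F. CPM used TMM factors over all 21 libraries; RPKM divided them by the union of exons in GENCODE M21 (release 21), to which all 32 symbols matched. The striatum score is the mean of scaled log2 CPM over 13 genes. DESeq2 1.42.0 was an alternative. Figures used Python 3.11.15 with matplotlib 3.10.9.

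The 32 genes and the other lists were chosen with earlier results of these data known. Values in every library (at E18.5 the lowest, median and highest) are given for genes past the threshold under TETA and for Gfap, Aqp4, Aldh1l1, Gja1, S100b, Sox9, Aldoc and Apoe. From the further astrocyte, radial glia and reactive lists, up to 5 genes past the threshold are named, of which 1 is not reported here; Fabp7, Nes and the NFI genes were named after their values were seen. The alternatives were DESeq2, no TMM factors, no filter, a replicate block, the counts as deposited, libraries of one first number summed, a striatum covariate and leaving out each library. Of the 32 genes, 7 have exons that overlap a gene on the opposite strand (Aldh1l1, Fgfr3, Glul, Id4, Slc25a18, Slc7a10 and Tril).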

Additional observations from a re-analysis of the deposited data

Results flagged for a closer look

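In 132 groups of 4 to 6 libraries, 1 for each gene and for the summed level, the gap between the highest or lowest library and the nearest other was divided by the range (Dixon's ratio). In 10 groups it passed the 95% critical value, and chance alone gives about 1 in 20, or 6.6. At E18.5 the libraries apart were control 3-1 and TETA 3-2, both high, for Gjb6 (ratios 0.749 and 0.792), control 3-2, high, for Cbs (0.699), TETA 1-2, low, for Apoe (0.639), TETA 3-2, high, for Ppp1r3c (0.705), TETA 1-1, high, for Gpr37l1 (0.749) and TETA 2-2, low, for Fam107a (0.821). At 7 weeks they were control 3, low, for Slc7a10 (0.765) and TETA 2, high, for Aldoc (0.832) and Tril (0.881).

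In Gjb6 at E18.5 the library apart held 0.512 CPM in control, where the others reached 0.129 CPM, and 0.854 CPM in TETA, where the others reached 0.177 CPM. The Aldoc value of TETA replicate 2 was 948 CPM, and the other 3 TETA libraries lay between 821 and 842 CPM.

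The effect of TETA differed between the ages for 2 genes, by an interaction term in edgeR's quasi-likelihood test over 21 libraries, beside 3.1% of all genes tested. The difference in log2 fold change, 7 weeks less E18.5, was -0.36 for Slc4a4 (adjusted p 0.00211) and -0.24 for Clu (adjusted p 0.0268). The Clu call held in 15 of 21 fits without 1 library, with adjusted p-values up to 0.0725 in edgeR, and was lost without TMM factors (0.0682). In the same test all 13 striatum genes passed with negative differences (median -1.36), and their part in these differences was not tested.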

How the results depend on the processing

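At E18.5 the count of genes past the threshold was 10 with DESeq2, 2 with the libraries of one first number summed and 0 under the other settings tried on all libraries. Leaving out each library gave 0 to 7 (7 without TETA replicate 1-2), and 0 to 0 of the astrocyte genes. At 7 weeks the striatum covariate left 2 genes and 0 astrocyte genes. The 8 otherwise called kept their sign, with log2 fold changes of -0.63 (Id3) to 0.26 (Ppp1r3c), larger for 5. That score did not overlap between the groups, so the fit cannot separate the treatment from the share of striatum. Leaving out each library gave 927 (without TETA replicate 3) to 1392 genes and 6 to 10 astrocyte genes. Between the ages in control it gave 12686 to 12837 genes and 32 to 32 astrocyte genes. For the interaction it gave 290 (without TETA replicate 3) to 622 genes (without TETA replicate 1-2 of E18.5) and 1 to 3 astrocyte genes, and without TMM factors 1 of them passed (Slc4a4). Over all genes, 54% of the interaction calls were higher, 45.5% with DESeq2 and 72% without TMM factors. Where not said, the cause of a change was not tested.

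Same-numbered libraries of control and TETA did not deviate together in every pair (correlations -0.275 to 0.284, mean 0.0188, at E18.5, and -0.0692 to -0.0295, mean -0.0504, at 7 weeks), and 2 of 6 and 0 of 4 TETA libraries correlated best with their own number. With the replicate block, 0 genes passed at E18.5, 1072 at 7 weeks and 472 for the interaction, with 0, 7 and 2 astrocyte genes. Aldh1l1 (adjusted p 0.0529 in edgeR) and Ppp1r3c (0.0923) no longer passed under the block at 7 weeks, and Sox9 did (0.02).

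At 7 weeks Slc4a4, Clu, Gpr37l1, Acsbg1 and Aldoc passed in 9 of 9 fits without 1 library, and under DESeq2, no TMM factors, no filter and the block. No called log2 fold change of the 32 genes reversed under any setting tried. The low counts of Gjb6, S100b, Gpr37l1 and Slc14a1 limit what can be seen at E18.5: the SE of Slc14a1 there was 0.23.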
